A study of Mus musculus with 19 samples.

Results

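The genes described here are 8 enzymes of heme synthesis, *Alas1*, *Alas2*, *Alad*, *Uros*, *Urod*, *Cpox*, *Ppox* and *Fech*, and *Hmox1*, the inducible heme oxygenase, in mouse bone marrow progenitors. They were chosen by name from the pathway and make 9 of the 54352 genes in the count tables of all 19 libraries. The study asked what silencing the lncRNA *Spehd* changes in the transcriptome of blood progenitors. C57BL6 hematopoietic stem cells were transduced with a doxycycline-inducible shRNA whose expression is reported by zsGreen and transplanted into sublethally irradiated C57BL/6-CD45.1; cKit-w41 mice, which keep blood cells of their own, and zsGreen+ cells were sorted 10 weeks later, after 6 days of doxycycline in the food. The shRNAs sh10 and sh20 were directed against *Spehd*, and the control shRNA against *Renilla* luciferase, which mice do not have. LSK cells (KLS in the labels, the lineage-negative Sca1+ cKit+ compartment that holds the stem cells) were sequenced in 10 libraries, of which 3 carried sh10, 3 sh20 and 4 the *Renilla* shRNA. Common myeloid progenitors (CMPs), sorted from the lineage-negative Sca1- cKit+ gate, were sequenced in 9, of which 3 carried sh10, 2 sh20 and 4 the *Renilla* shRNA. Every group, controls included, thus came from transplanted, transduced and doxycycline-fed animals. The level of *Spehd* itself was not analysed here. The labels do not say whether libraries of a group came from separate animals, so p-values measure the spread between these libraries, which may in part be technical.

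Heme is an iron-carrying ring that is made in a chain of enzymes shared between mitochondria and cytosol. 5-aminolevulinate synthase makes the first, usually limiting precursor from glycine and succinyl-CoA; *Alas1* encodes the form of most tissues and *Alas2* the form of red cell precursors. *Alad*, *Uros* and *Urod* act in the cytosol, *Cpox*, *Ppox* and *Fech* finish the ring and insert iron in the mitochondrion, and *Hmox1* breaks heme down. Erythroid cells raise the whole chain to make hemoglobin, and macrophages that clear red cells are known for high *Hmox1*.

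The libraries held between 3647318 and 5965155 counts on genes. In CMPs the *Spehd* shRNA libraries (4918631 to 5965155) were all deeper than the *Renilla* libraries (3857980 to 4314959). Both sorts carried their markers. *Ly6a*, which encodes Sca1, lay between 39.9 and 81.7 CPM (counts scaled to the size of the library) in LSK and between 1.58 and 9.83 in CMP libraries, and *Gata1*, the erythroid and megakaryocytic transcription factor, between 58.9 and 125 and between 253 and 312. Some replicates of CMP sh20, LSK sh10 and LSK sh20 differed more among themselves than the rest, with a chi-square per degree of freedom of 27.8 between both CMP sh20 libraries, of 37.7 and 45.2 between LSK sh10 replicate B and its replicates, and of 13.9 to 18.3 within LSK sh20, against 4.32 to 8.07 for all other pairs.

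Promoter sequence is shown for *Cpox*, the called member with the largest rise from LSK cells to CMPs, for *Urod*, and for *Alas2*. These are bases upstream of the RefSeq start site in GRCm38.p6, limited to bases outside GENCODE exons and written 5′ to 3′ on the strand of the gene, with the searched motifs in capitals, which are GATAA, the E-box CACGTG and the KLF-like CCNCNCCC, where they lie whole in the stretch (either strand, overlapping matches counted). Windows from 250 bases before to 50 after a start site were found for 7 of the 9 members, in 10 windows.
Cpox promoter, chr16:58669958-58670207, plus strand: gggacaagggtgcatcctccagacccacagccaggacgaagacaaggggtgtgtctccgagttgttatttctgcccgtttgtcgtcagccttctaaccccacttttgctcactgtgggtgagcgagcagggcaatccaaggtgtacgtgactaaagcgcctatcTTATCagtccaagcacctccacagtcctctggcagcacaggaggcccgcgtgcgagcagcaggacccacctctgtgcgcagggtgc
Urod promoter, chr4:116994414-116994663, minus strand: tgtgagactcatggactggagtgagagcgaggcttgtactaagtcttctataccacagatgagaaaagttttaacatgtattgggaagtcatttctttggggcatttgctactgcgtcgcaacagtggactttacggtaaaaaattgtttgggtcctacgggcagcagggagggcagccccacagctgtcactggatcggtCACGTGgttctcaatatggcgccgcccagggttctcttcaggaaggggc
Alas2 promoter, chrX:150547167-150547374, plus strand: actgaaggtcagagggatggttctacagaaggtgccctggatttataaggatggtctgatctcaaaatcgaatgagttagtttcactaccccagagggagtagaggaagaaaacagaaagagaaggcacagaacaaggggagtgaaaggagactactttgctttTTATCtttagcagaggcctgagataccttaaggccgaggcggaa
GATAA, the core that GATA factors bind, stood in 3 of the 10 windows (of *Alas2*, *Cpox* and *Uros*) and in 25.4% of all 32851 windows of that length. CACGTG, an E-box, stood in 4 of the 10 (of *Alad*, *Urod* and *Uros*) and in 7.15% of all. CCNCNCCC, the CACCC-like core of KLF factors, stood in 9 of the 10 and in 49.5% of all. These are matches of letters only.

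In cells with *Renilla* shRNA, most of the chain was higher in CMPs than in LSK cells, while its first enzyme *Alas1* and the degrading enzyme *Hmox1* were lower. *Cpox* was 3.54-fold, *Fech* 2.21-fold, *Uros* 1.95-fold, *Urod* 1.85-fold and *Alad* 1.84-fold higher in CMPs. *Alas1* and *Hmox1* stood in CMPs at 0.623 and 0.277 of their LSK level. Of the 9 members, 7 passed a false discovery rate of 0.05 in the quasi-likelihood test of edgeR, with p-values adjusted by Benjamini-Hochberg across 15066 genes, 5 of them higher and 2 lower, where 19.8% of all genes tested passed (11.0% higher and 8.73% lower). The median log2 fold change was 0.89 over the 9 members and -0.02 over all genes tested. Libraries of both cell types did not overlap for 8 of the 9, against 31.1% of all genes tested. In a bulk sort, fewer cells of one kind and less RNA per cell cannot be told apart.

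**Figure D1:**
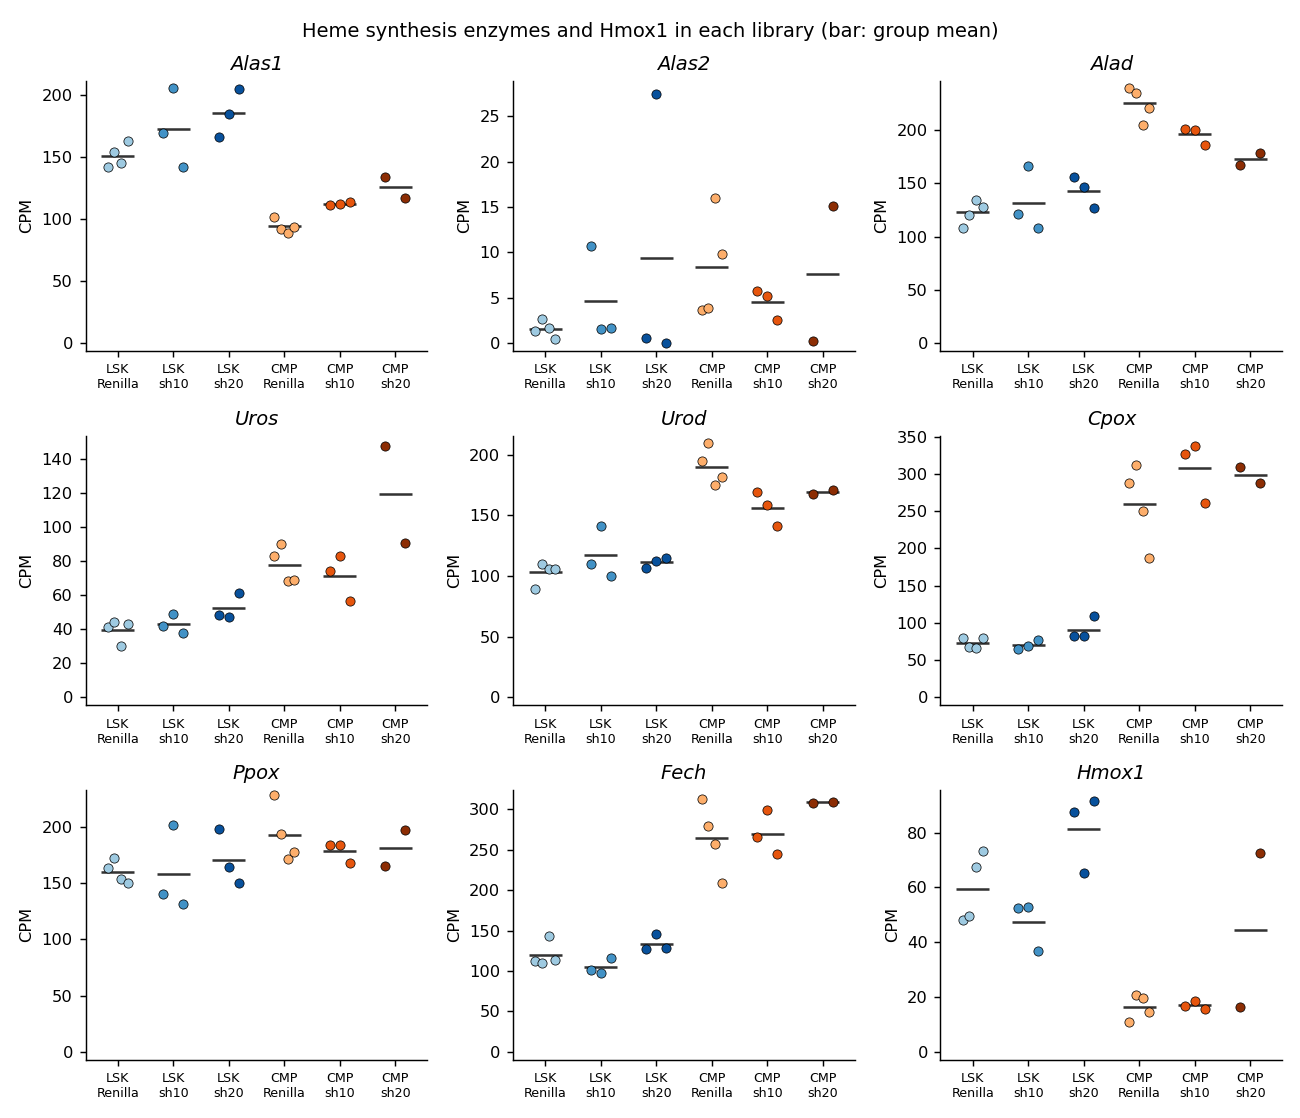
CPM (vertical axis, from 0) of each member in each of the 19 libraries, grouped by cell type and shRNA; points are libraries and bars are group means. Cpox and Fech lie higher in every CMP than in every LSK library, Alas1 lies lower, and Alas2 and the CMP sh20 group of Uros and Hmox1 spread widely.

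*Alas1* (ENSMUSG00000032786.16, chr9:106233455-106248654 of mm10), the housekeeping synthase, had 142, 154, 145 and 163 CPM in the LSK *Renilla* libraries and 101, 91.6, 89.1 and 93.8 in the CMP *Renilla* libraries. Every CMP library was below every LSK library, and this held for all 9 CMP and 10 LSK libraries whatever the shRNA (89.1 to 134 against 142 to 205 CPM). On the log2 scale the difference between CMP and LSK, with its standard error, was -0.68 ± 0.11 (adjusted p = 0.000301). It was -0.62 ± 0.12 with sh10 (adjusted p = 0.00222) and -0.56 ± 0.14 with sh20 (adjusted p = 0.0112). With sh20 the call rested on single libraries, with -0.46 both without CMP sh20 replicate C (adjusted p = 0.0796) and without LSK sh20 replicate C (adjusted p = 0.0737).

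*Alas2* (ENSMUSG00000025270.13, chrX:150547375-150570638), the erythroid synthase, was near the floor of detection in most libraries. Its counts were 6, 13, 6 and 2 in LSK *Renilla*, 61, 8 and 9 in LSK sh10, and 3, 128 and 0 in LSK sh20. They were 14, 16, 69 and 40 in CMP *Renilla*, 27, 26 and 12 in CMP sh10, and 1 and 86 in CMP sh20. The *Renilla* libraries of the cell types did not overlap, but the log2 fold change of 2.47 ± 1.28 did not pass (adjusted p = 0.193), and with sh10 and sh20 the values were -0.06 ± 1.36 and -0.29 ± 1.49. Without a filter on low counts the *Renilla* comparison passed, at 2.44 ± 0.69 (adjusted p = 0.00921). A library of LSK sh20 thus held the highest *Alas2* level of the series and another none.

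High *Alas2* levels stood beside high levels of the globin genes, which encode the protein chains of hemoglobin, but often not of the whole list of erythroid markers. The summed level of *Hba-a1*, *Hba-a2*, *Hbb-bs* and *Hbb-bt* was 61.1 CPM in LSK sh20 replicate B, where *Alas2* had 27.5 CPM, and 3.75 and 6.98 CPM in the other LSK sh20 libraries, where it had 0.592 and 0. It was 59.9 CPM in CMP *Renilla* replicate C, where *Alas2* had 16.0 CPM, and 22.1 to 40.5 CPM in the other CMP *Renilla* libraries. CMP sh20 replicate B went against this, with a summed globin level of 36.3 CPM and 1 count of *Alas2*. Over the whole list of 15 erythroid markers, of which 14 were found, the summed level was 424 to 695 CPM in LSK and 1691 to 2315 CPM in CMP libraries. Within some groups this sum did not follow *Alas2*. In CMP *Renilla* replicates A to D it was 2140, 2267, 1843 and 1691 CPM, where *Alas2* had 14, 16, 69 and 40 counts. LSK sh10 replicate A, with 61 counts of *Alas2*, had the lowest sum of its group (499 CPM), and CMP sh20 replicate B, with 1 count, a higher sum than replicate C (2082 against 2033 CPM). In LSK sh20 replicate B was highest in both, and in CMP sh10 replicate C was lowest in both. The part of such cells in the *Alas2* values was not tested. An exon of *Alas2* overlaps *Apex2* on the other strand (median 104 counts), and since the library kit does not mark strand, reads of the overlap cannot be told apart.

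**Figure D2:**
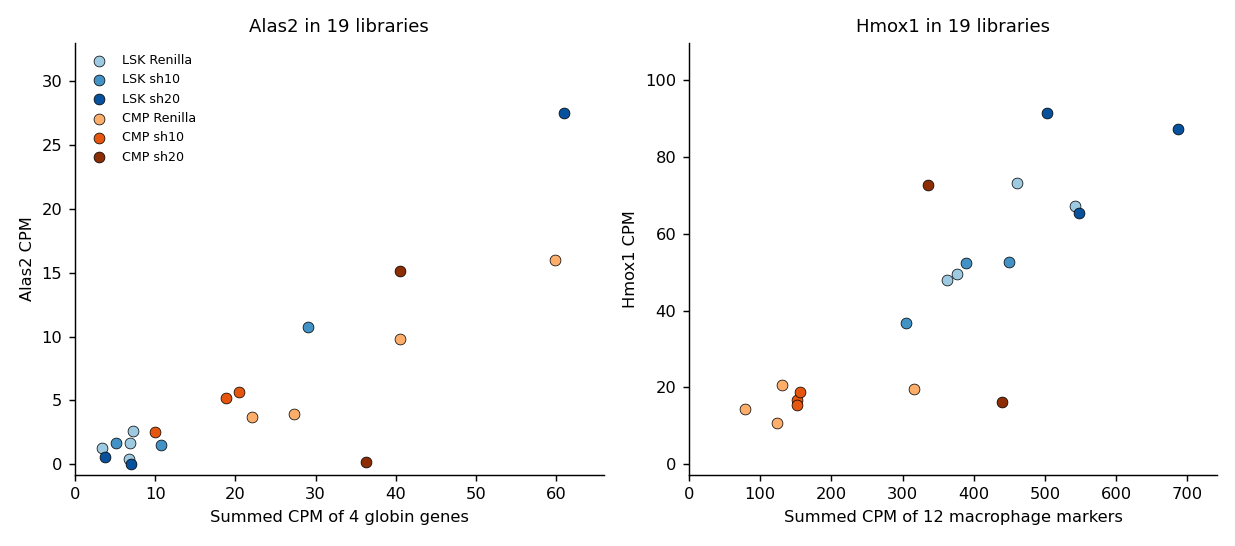
Left, Alas2 CPM against the summed CPM of 4 globin genes; right, Hmox1 CPM against the summed CPM of 12 macrophage markers; each point is 1 of the 19 libraries, coloured by cell type and shRNA. LSK sh20 replicate B is highest for both measures on the left (27.5 and 61.1 CPM), and CMP sh20 replicate B has Hmox1 of 16.3 CPM with markers at 439.7 CPM on the right.

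*Alad* (ENSMUSG00000028393.10, chr4:62509169-62519918), which joins 2 molecules of aminolevulinate into porphobilinogen, had 108, 121, 134 and 128 CPM in the LSK *Renilla* and 240, 235, 205 and 221 CPM in the CMP *Renilla* libraries. All CMP libraries were above all LSK libraries, also with the *Spehd* shRNAs (167 to 240 against 108 to 166 CPM). The log2 fold change between the cell types was 0.88 ± 0.12 with *Renilla* shRNA (adjusted p = 7.54e-05), 0.57 ± 0.13 with sh10 (adjusted p = 0.00700) and 0.27 ± 0.15 with sh20 (adjusted p = 0.234). The sh20 value passed with log2 total counts as a covariate (0.46, adjusted p = 0.0377) and with counts corrected for positions read more than once (0.69, adjusted p = 0.0371), a correction described with the knockdown values. The sh10 call was lost without CMP sh10 replicate A or B or LSK sh10 replicate A (0.50 to 0.55, adjusted p of 0.0507 to 0.0536) and under upper quartile normalization (0.44, adjusted p = 0.0698).

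*Uros* (ENSMUSG00000030979.13, chr7:133686243-133710072) closes the ring. It had 41.4, 44.4, 30.3 and 43.0 CPM in LSK *Renilla* and 83.2, 90.2, 68.2 and 69.0 CPM in CMP *Renilla* libraries, which did not overlap, a log2 fold change of 0.96 ± 0.19 (adjusted p = 0.00175), with 0.73 ± 0.21 with sh10 (adjusted p = 0.0246) and 1.19 ± 0.23 with sh20 (adjusted p = 0.00229). CMP sh20 replicate B alone reached 148 CPM, and without it the sh20 value was 0.80 (adjusted p = 0.0601). The sh10 call was lost without CMP sh10 replicate A or B or LSK sh10 replicate A or C (0.60 to 0.70, adjusted p of 0.0762 to 0.139) and under upper quartile normalization (0.60, adjusted p = 0.0702).

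*Urod* (ENSMUSG00000028684.14, chr4:116989965-116994413), which removes carboxyl groups from uroporphyrinogen, had 89.4, 110, 106 and 106 CPM in LSK *Renilla* and 195, 210, 175 and 182 CPM in CMP *Renilla* libraries. The groups stood apart, and the log2 fold change was 0.89 ± 0.11 (adjusted p = 3.55e-05). With sh10 it was 0.42 ± 0.12 (adjusted p = 0.0294), and LSK sh10 replicate B at 141.4 CPM lay above the lowest CMP sh10 library at 141.0. The sh10 call was lost under upper quartile normalization (0.28, adjusted p = 0.225), without a filter (0.39, adjusted p = 0.138) and with at least 10 counts in every library (0.35, adjusted p = 0.0837). It was also lost without any 1 of CMP sh10 replicates A and B, CMP *Renilla* replicates A, B and C, LSK sh10 replicates A and C, LSK sh20 replicates B and C, and LSK *Renilla* replicates C and D (0.315 to 0.41, adjusted p of 0.0502 to 0.182). With sh20 it was 0.61 ± 0.14 (adjusted p = 0.00708).

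*Cpox* (ENSMUSG00000022742.6, chr16:58670292-58717636), coproporphyrinogen oxidase of the mitochondrial intermembrane space, rose most among the called members. It had 79.2, 67.5, 66.0 and 80.1 CPM in LSK *Renilla* and 287, 311, 251 and 187 CPM in CMP *Renilla* libraries. The lowest CMP library of any shRNA (187 CPM) lay above the highest LSK library (109 CPM). The log2 fold change was 1.82 ± 0.15 with *Renilla* shRNA (adjusted p = 5.15e-07), 2.14 ± 0.17 with sh10 (adjusted p = 6.61e-07) and 1.72 ± 0.18 with sh20 (adjusted p = 1.26e-05).

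*Ppox* (ENSMUSG00000062729.11, chr1:171275990-171281186), the enzyme after *Cpox*, was the member of the synthesis chain with abundant reads that did not pass in any of these 3 comparisons. It had 164, 172, 154 and 150 CPM in LSK *Renilla* and 228, 194, 172 and 177 CPM in CMP *Renilla* libraries, and the ranges overlapped. Its log2 fold change was 0.27 ± 0.13 (adjusted p = 0.167) with *Renilla* shRNA, 0.18 ± 0.15 with sh10 and 0.09 ± 0.17 with sh20. Without LSK sh10 replicate B it passed with *Renilla* shRNA (0.29, adjusted p = 0.0438) and with sh10 (0.42, adjusted p = 0.0355). An exon of *Ppox* overlaps *B4galt3* on the other strand (median 339 counts), and their reads there cannot be told apart.

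*Fech* (ENSMUSG00000024588.9, chr18:64452914-64490251), ferrochelatase, which inserts the iron, had 112, 110, 143 and 114 CPM in LSK *Renilla* and 313, 279, 258 and 209 CPM in CMP *Renilla* libraries. Again every CMP library lay above every LSK library (209 to 313 against 97.8 to 145 CPM over all shRNAs). For *Fech* the log2 fold change was 1.14 ± 0.12 with *Renilla* shRNA (adjusted p = 5.72e-06), 1.36 ± 0.14 with sh10 (adjusted p = 6.85e-06) and 1.21 ± 0.15 with sh20 (adjusted p = 5.36e-05). *Alas1*, *Alad*, *Cpox* and *Fech* were thus the 4 of 9 members without overlap between all CMP and all LSK libraries, against 6.25% of all genes tested.

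*Hmox1* (ENSMUSG00000005413.8, chr8:75093621-75100589), which opens the heme ring and frees its iron, had 48.0, 49.6, 67.4 and 73.2 CPM in LSK *Renilla* and 10.8, 20.7, 19.7 and 14.5 CPM in CMP *Renilla* libraries. The groups stood apart, with a log2 fold change of -1.85 ± 0.34 (adjusted p = 0.00124). It was -1.48 ± 0.39 with sh10 (adjusted p = 0.0144) and -0.87 ± 0.42 with sh20 (adjusted p = 0.181), where the 2 CMP libraries had 16.3 and 72.7 CPM. Without the latter, CMP sh20 replicate C, the sh20 value was -2.32 (adjusted p = 0.000827), and without replicate B it was -0.15 (adjusted p = 0.832). The sh10 call was lost without CMP sh10 replicate A (-1.48, adjusted p = 0.0515).

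Between the cell types with *Renilla* shRNA, markers of macrophages moved with *Hmox1*. Within the CMP *Renilla* libraries they did not, since replicates B and C had 131 and 316 CPM of markers and 20.7 and 19.7 CPM of *Hmox1*. The summed level of the 12 listed markers was 363 to 543 CPM in LSK *Renilla* and 78.3 to 316 CPM in CMP *Renilla* libraries. Of the 11 tested, 7 were lower in CMPs, where 8.73% of all genes were lower. They were led by *Vcam1*, an adhesion molecule of island and splenic macrophages (log2 fold change -2.25 ± 0.46), and included *C1qa*, a complement chain (-1.69 ± 0.38). With sh20, where *Hmox1* did not pass, the CMP libraries had 336 and 439.7 CPM of these markers and none of the 11 was called. The order was not the same within that group, since replicate C held more *Hmox1* (414 counts) and replicate B more markers. *C1qb* ranged from 53 to 638 counts in CMP and from 212 to 535 in LSK libraries, and *Marco* from 0 to 2 and from 0 to 11. The sort removed cells with lineage markers, and the part of macrophages in the *Hmox1* values was not tested.

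**Figure D3:**
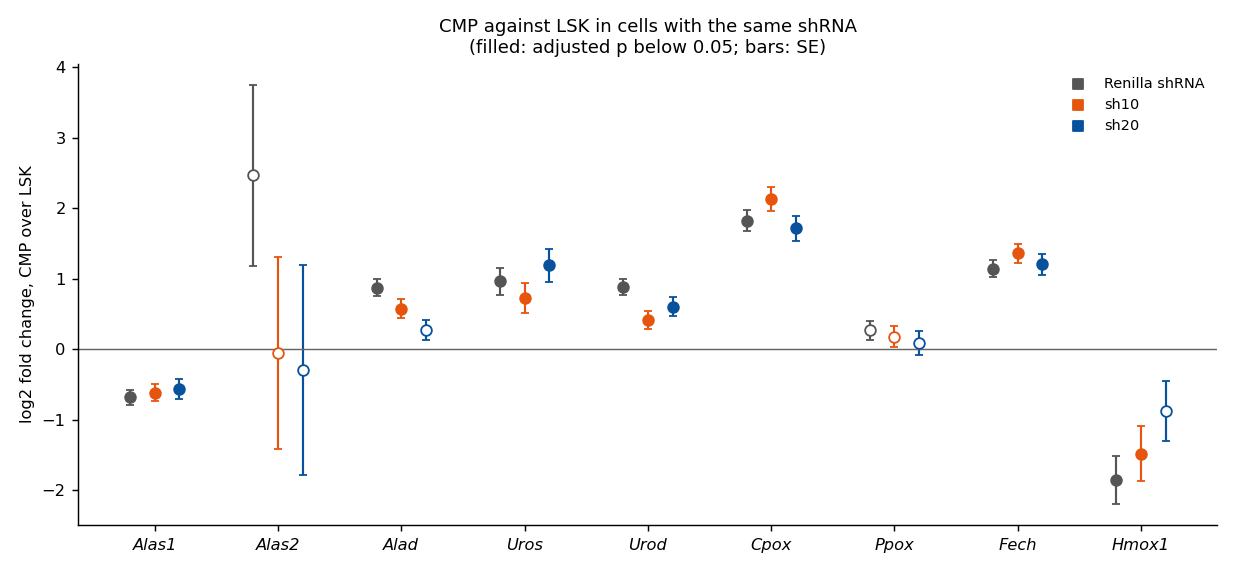
Log2 fold change of CMP over LSK (vertical axis) for the members, in chain order, in cells with Renilla shRNA, sh10 or sh20; bars are standard errors and filled points passed an adjusted p of 0.05. Cpox and Fech lie between 1.14 and 2.14 with all 3 shRNAs, and Alad is at 0.88 with Renilla shRNA and, uncorrected, at 0.27 with sh20 (0.69 with counts corrected for positions read more than once).

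With sh10 the same 7 members passed as with *Renilla* shRNA, 5 higher and 2 lower in CMPs, where 16.1% of all genes passed (7.51% higher and 8.58% lower). The count fell to 3 without CMP sh10 replicate A, and to 4 without CMP sh10 replicate B or LSK sh10 replicate A, where 10.1%, 8.59% and 13.9% of all genes passed; *Alas1*, *Cpox* and *Fech* were called in each of these. Under upper quartile normalization 4 passed, where 15.9% of all genes did. With sh20, 5 members passed, 4 higher and 1 lower, where 14.6% of all genes passed (5.94% higher and 8.64% lower). The median over the 9 members was 0.42 with sh10 and 0.27 with sh20. The 3 comparisons use different libraries of both cell types, fitted together.

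The ratio of 2 members within a library needs no scaling between libraries. There were between 1.99 and 3.40 *Cpox* counts per *Alas1* count in the CMP libraries, and between 0.333 and 0.560 in the LSK libraries. The mean was 2.76 ± 0.58 (SD, n = 4) in CMP *Renilla* and 0.487 ± 0.053 (SD, n = 4) in LSK *Renilla* libraries. *Alas1* took 6.48% to 9.69% of the summed counts of the 8 synthesis enzymes in CMP libraries and 18.6% to 22.9% in LSK libraries. For *Cpox* these shares were 16.3% to 24.5% and 7.36% to 12.1%.

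Per kilobase of annotated exons, *Alad* had the highest mean level of the members in both cell types, with 120 ± 8.30 CPM per kilobase in CMP *Renilla* and 65.6 ± 5.84 in LSK *Renilla* libraries (SD, n = 4 each). *Urod* followed with 73.4 ± 5.98 and 39.7 ± 3.57. In CMPs *Ppox* (42.6 ± 5.60) and *Cpox* (38.9 ± 8.12) did not differ beyond their spread, nor did *Uros* (21.7 ± 3.03) and *Fech* (19.1 ± 3.14). *Alas1*, with 15.2 ± 0.86, was above only *Hmox1* (9.38 ± 2.65) and *Alas2* (3.48 ± 2.43). In LSK cells *Ppox* (35.4 ± 2.21) and *Hmox1* (34.0 ± 7.23) were alike within their spread, *Alas1* stood at 24.4 ± 1.55, and *Uros* (11.1 ± 1.80), *Cpox* (10.99) and *Fech* (8.66 ± 1.14) were lowest apart from *Alas2* (0.619 ± 0.376). On this scale *Cpox* went from the level of *Uros* in LSK cells to that of *Ppox* in CMPs. Per kilobase of the principal transcript alone, an added alternative, *Ppox* in LSK cells (87.7) came above *Urod* (69.1), *Hmox1* (37.95) was well below *Ppox* and also below *Alas1* (44.3), and *Cpox* (23.6) was slightly above *Uros* (22.6). In CMP *Renilla* libraries the mean of *Cpox* (83.6) was below that of *Ppox* (105.7) on that scale.

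The other genes of the pathway, on lists chosen with earlier results known, were mostly higher in CMPs with *Renilla* shRNA as well. Of 9 further genes of heme synthesis and its transport, 8 were higher and none lower, with a median log2 fold change of 0.80. *Slc25a38*, which carries glycine into mitochondria, led with 1.78 ± 0.16, *Tmem14c*, needed for porphyrin import, had 0.96 ± 0.12, and *Abcb10*, a mitochondrial transporter, 0.80 ± 0.12. With sh10, 6 of the 9 passed and with sh20, 5, all higher. The counts of this and the following lists stand against 11.0% of all genes higher and 8.73% lower with *Renilla* shRNA, 7.51% and 8.58% with sh10, and 5.94% and 8.64% with sh20.

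Among 14 genes of iron supply, 5 were higher in CMPs and none lower, with a median of 0.19. The transferrin receptor *Tfrc* had 1.96 ± 0.28, the ferrireductase *Steap3* 1.89 ± 0.26 and the iron transporter *Slc11a2* 1.89 ± 0.24, the steps by which iron enters through the transferrin cycle. Of 12 tested genes of iron-sulfur cluster assembly, 8 were higher and none lower, with a median of 0.51, among them *Lyrm4* (1.12 ± 0.19) and *Glrx5* (0.77 ± 0.09). With sh10 4 of these 12 passed, all higher, and with sh20 1, a share near that of all genes (5.94% higher). None of the 3 genes that make heme a and c passed with *Renilla* shRNA.

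Genes of heme breakdown other than *Hmox1* went in both directions. Both biliverdin reductases were higher in CMPs, *Blvrb* by 1.96 ± 0.21 and *Blvra* by 0.56 ± 0.12, and the constitutive heme oxygenase *Hmox2* was lower (-0.50 ± 0.11). In all, 3 of 8 tested genes of heme export and breakdown were higher and 1 lower. Of 9 tested targets of NRF2, the stress factor that also drives *Hmox1*, 3 were higher and none lower, with *Nqo1* at 1.10 ± 0.27 and *Gclm* at 0.62 ± 0.10. With sh10, 5 were higher and 1 lower, *Osgin1* (-3.45 ± 0.89), and with sh20, 2 were higher and none lower.

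The erythroid program moved with the chain. Of 10 erythroid regulators 7 were higher in CMPs, with *Klf1* at 3.03 ± 0.30, the erythropoietin receptor *Epor* at 2.56 ± 0.23 and *Gata1* at 2.07 ± 0.17, and of 14 tested erythroid markers 11 were higher, led by *Rhd* (4.72 ± 0.43) and *Rhag* (4.67 ± 0.37), blood group proteins of the red cell membrane. Of the markers of other cells, 8 of 10 of granulocytes and monocytes, 7 of 8 of mast cells and basophils and 9 of 12 of stem cells were lower in CMPs, while 5 of 7 of megakaryocytes and 2 of 7 of lymphoid cells were higher. The part of a mix of committed cells within the CMP gate in the enzyme values was not tested.

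*Spehd* shRNAs were compared with *Renilla* shRNA within each cell type. In CMPs, with both shRNAs as 1 group of 5 libraries against 4 with *Renilla* shRNA, none of the 9 members passed in edgeR's quasi-likelihood test, where 0.116% of 12912 genes did; 3 members had an unadjusted p under 0.05 (*Alas1*, *Alad* and *Urod*). DESeq2 called 2, *Alas1* (log2 fold change 0.34, adjusted p = 0.0153) and *Alad* (-0.26, adjusted p = 0.0278), where it called 9.39% of genes, and edgeR called the same 2 with the shRNAs as separate groups, where 4.88% of genes passed. With upper quartile normalization 1 member passed, where 2.54% of genes did. The median over the members was 0.11, and 0.02 over all genes tested. For *Alas1*, *Alad* and *Urod* the 5 libraries did not overlap the 4, against 9.25% of all genes tested.

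*Alas1* in CMPs had 111, 113 and 114 CPM with sh10 and 134 and 117 CPM with sh20, each above the 89.1 to 101 CPM of the *Renilla* libraries. Against *Renilla* shRNA the log2 fold change was 0.33 ± 0.09 with both shRNAs (adjusted p = 0.106), 0.26 ± 0.09 with sh10 (adjusted p = 0.139) and 0.43 ± 0.10 with sh20 (adjusted p = 0.0343). Over the alternative fits the value with both shRNAs ran from 0.13 to 0.34, with adjusted p of 0.0153 to 0.752. The direction in CMPs was thus toward the level of the LSK *Renilla* libraries. The difference between the effects in CMP and in LSK was 0.09 ± 0.14 (adjusted p = 0.828), so no narrowing of the gap between the cell types was called. As a share of the counts of the 8 synthesis enzymes, *Alas1* took 8.155% to 9.69% with *Spehd* shRNAs and 6.48% to 8.162% with *Renilla* shRNA, and these ranges overlapped slightly. In LSK cells the libraries with *Spehd* shRNAs had 142 to 205 CPM, overlapping the 142 to 163 CPM of the *Renilla* libraries, and the log2 fold change was 0.24 ± 0.12 (adjusted p = 0.998).

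*Alad* in CMPs had 202, 200 and 186 CPM with sh10 and 167 and 178 CPM with sh20, each below the 205 to 240 CPM of the *Renilla* libraries. The log2 fold change was -0.27 ± 0.07 with both shRNAs (adjusted p = 0.105), -0.20 ± 0.07 with sh10 (adjusted p = 0.144) and -0.37 ± 0.08 with sh20 (adjusted p = 0.0309). Before scaling, the sh20 libraries had 988 and 1014 counts and the *Renilla* libraries 884 to 964, in libraries of different totals. Removal of duplicate reads holds a gene to about 1 count per base and *Alad* reached 0.813 counts per base of its principal transcript. With counts corrected for this, an alternative added after seeing the data, the sh20 value was -0.28 ± 0.12 (adjusted p = 0.196). With log2 total counts as a covariate it was 0.06 (standard error 0.309), in a fit that cannot tell totals and shRNA apart.

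Only *Alas1* and *Alad* passed with sh20 in CMPs, where 6.17% of all genes did, and none with sh10, where 1.97% did and 3 members had an unadjusted p under 0.05; DESeq2 called 3 with sh20, where it called 11.0% of genes, and none with sh10, where it called 9.26%. Against *Renilla* shRNA in CMPs, 4 members passed with sh20 without a filter, where 4.04% of all genes did, and none with counts corrected for positions read more than once, where 3.56% did. Both sh20 calls were lost without single libraries, *Alas1* without CMP sh20 replicate B (0.33, adjusted p = 0.146) and *Alad* without the same library (-0.33, adjusted p = 0.0993). *Alas1* was also lost without any 1 of the CMP sh10 libraries or of CMP *Renilla* replicates B, C and D, and *Alad* without CMP sh10 replicate A or B or CMP *Renilla* replicate A, B or D. With replicate letters as a block neither passed (0.46, adjusted p = 0.155, and -0.34, adjusted p = 0.154).

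*Urod* in CMPs had 169, 158 and 141 CPM with sh10 and 168 and 171 CPM with sh20, against 175 to 210 CPM with *Renilla* shRNA. Its log2 fold change was -0.23 ± 0.08 (adjusted p = 0.181), and -0.29 ± 0.09 with sh10 (adjusted p = 0.104). The later enzymes *Cpox* (0.24 ± 0.14), *Ppox* (-0.10 ± 0.10) and *Fech* (0.11 ± 0.12) gave no call in any knockdown comparison, and their knockdown and *Renilla* libraries overlapped in CMPs.

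The 2 CMP sh20 libraries disagreed for *Uros* and *Hmox1*. *Uros* had 148 CPM in replicate B and 90.4 in replicate C, against 56.4 to 83.0 CPM with sh10 and 68.2 to 90.2 with *Renilla* shRNA. *Hmox1* had 16.3 and 72.7 CPM, against 15.5 to 18.7 and 10.8 to 20.7 CPM. Neither passed between sh20 and *Renilla* shRNA (*Uros* 0.63 ± 0.22, adjusted p = 0.114; *Hmox1* 1.45 ± 0.48, adjusted p = 0.102). Each passed when the library in which it was low was left out, *Uros* at 0.95 (adjusted p = 0.0107) without replicate C and *Hmox1* at 2.15 (adjusted p = 0.00776) without replicate B, which leaves 1 sh20 library that is assumed to vary like the others. Without the library in which it was high, *Uros* was at 0.23 (adjusted p = 0.551) and *Hmox1* at 0.007 (adjusted p = 0.991).

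**Figure D4:**
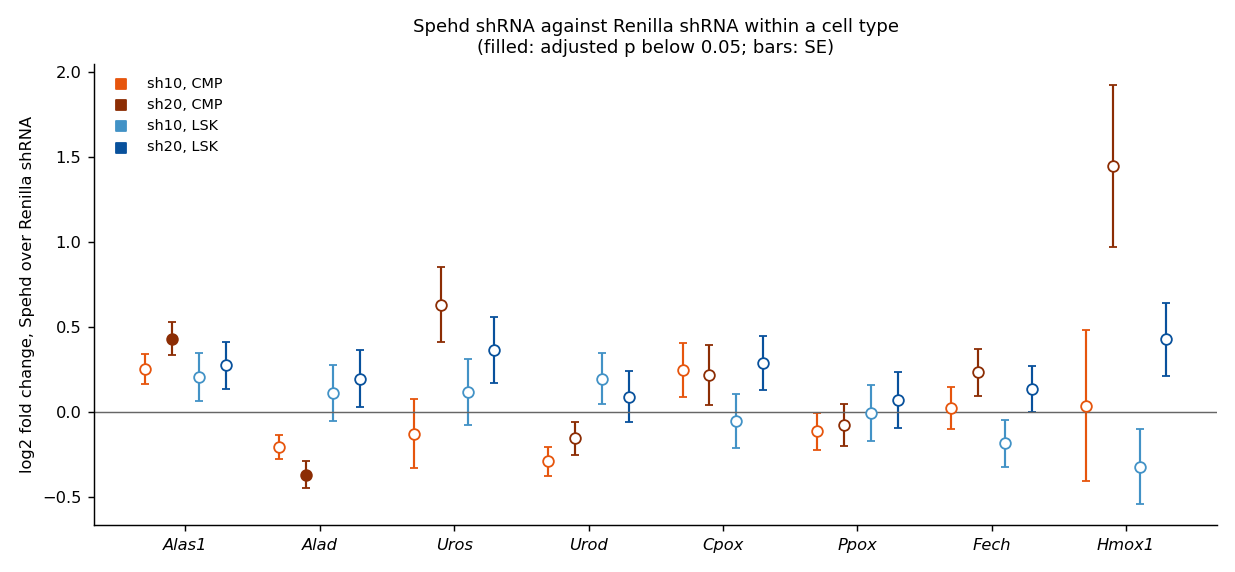
Log2 fold change of each Spehd shRNA over Renilla shRNA (vertical axis) for the members without Alas2, in CMP and in LSK cells; bars are standard errors and filled points passed an adjusted p of 0.05. Only Alas1 (0.43) and Alad (-0.37) with sh20 in CMPs are filled.

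Compared directly in CMPs, sh20 and sh10 differed for no member in edgeR's quasi-likelihood test, where 6.41% of all genes passed. *Uros* (0.76 ± 0.23, adjusted p = 0.0777) and *Hmox1* (1.41 ± 0.51, adjusted p = 0.120) had an unadjusted p under 0.05, and DESeq2 called *Uros* (adjusted p = 0.0229), as it did 13.2% of genes. Without a filter 2 members passed, where 4.95% of all genes did. For *Alas1* the difference was 0.18 ± 0.10 and for *Alad* -0.17 ± 0.08, and neither passed (adjusted p = 0.307 and 0.243).

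In LSK cells no gene of any kind passed in edgeR in any knockdown comparison (0% of 13441 genes with both shRNAs, and 0% of 13828 with sh10, with sh20 and between them), while 492, 457, 1152 and 1268 genes had an unadjusted p under 0.05 and DESeq2 called 0, 3, 195 and 256. Of the 8 members tested with both shRNAs, none had an unadjusted p under 0.05 and DESeq2 called none. Their log2 fold changes ran from -0.02 (*Fech*) to 0.25 (*Uros*). Fitted per shRNA, again none passed at an unadjusted p, while between sh20 and sh10 2 of 9 did, *Fech* (0.32 ± 0.14) and *Hmox1* (0.75 ± 0.23), with adjusted p of 0.544 and 0.321. *Hmox1* had 87.4, 65.4 and 91.5 CPM with sh20 and 52.4, 52.8 and 36.9 with sh10 in LSK cells, and the summed macrophage markers were 503 to 688 CPM and 305 to 449 CPM.

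The difference between the effects in CMP and in LSK was called for no member (0.0531% of 15066 genes passed). *Alad* (-0.45 ± 0.15, adjusted p = 0.368) and *Urod* (-0.38 ± 0.14, adjusted p = 0.427) had an unadjusted p under 0.05, and DESeq2 called none. With sh10 alone 0.0199% of genes passed and with sh20 alone 0.584%, in both cases with no member among them by edgeR or DESeq2 and 1 member each at an unadjusted p under 0.05 (*Urod* with sh10, -0.47 ± 0.17, and *Alad* with sh20, -0.60 ± 0.19). Without LSK sh10 replicate B, the library that stood farthest from its replicates, 1 member, *Alad*, was called with sh20, where 1.06% of genes passed. These contrasts use the same *Renilla* libraries as the comparisons above.

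Around the chain, a few genes of the other lists passed with sh20 in CMPs, where 6.17% of all genes did, 1.90% higher and 4.27% lower, and the counts in small lists below are read against these shares. No gene at all passed in this comparison with the replicate block or with log2 total counts as a covariate, so each of these calls was lost there. In CMPs totals did not overlap between shRNAs, so the covariate fit cannot tell them apart and decides nothing about these calls. With it, the standard error of *Tfrc* went from 0.122 to 0.55. *Tfrc* rose by 0.86 ± 0.12 (adjusted p = 0.00930) and *Fam210b*, a mitochondrial protein of erythroid heme synthesis, by 0.72 ± 0.15 (adjusted p = 0.0279). Of 14 genes of iron supply 1 rose and 3 fell, the ferritin chain *Fth1* (-0.46 ± 0.08), the iron chaperone *Pcbp1* (-0.42 ± 0.06) and *Snx3* (-0.32 ± 0.07). Of 12 genes of iron-sulfur clusters 2 fell, *Glrx5* (-0.45 ± 0.08) and *Hspa9* (-0.22 ± 0.06). The regulators *Klf1* (-0.39 ± 0.09), *Lmo2* (-0.35 ± 0.05) and *Nfe2* (-0.33 ± 0.06) fell, 3 of 10, and of the erythroid markers *Car1* (-0.49 ± 0.07) and *Car2* (-0.43 ± 0.07), both carbonic anhydrases, fell. Of 10 tested macrophage markers *C1qa* (1.82 ± 0.46) and *Spic* (1.73 ± 0.44) rose. With sh10, *Slc11a2* (0.48 ± 0.09) was the gene of the iron and heme lists that passed, and *Nfe2* and *Lmo2* fell. These 3 sh10 calls were lost too, with adjusted p of 0.148 to 0.18 with the replicate block and of 0.989 for each with log2 total counts as a covariate.

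Across the 19 libraries, the gene most like each member was sought among 10484 genes that averaged 50 counts or more, by Pearson's r of log2 CPM, as a description of libraries that share cell type and depth. The r within groups, after each group's mean was taken away, is given beside it, and was lower for each pair named with it here. *Cpox* ran closest to *Cyth3* (r = 0.99, Spearman's rho = 0.88, r within groups = 0.79), *Minpp1* (within groups 0.78) and *Nxpe2* (within groups 0.52). *Fech* ran closest to *Nxpe2* (r = 0.97, rho = 0.94, r within groups = 0.47), *Cpox* itself (within groups 0.48) and *Hpn* (within groups 0.60), so that much of these r was the difference between groups. *Alad* ran closest to *Uqcrc2* and *Uqcrfs1*, subunits of respiratory complex III, and to *Glrx5* (r = 0.98 for each, within groups 0.85 to 0.91), and *Urod* to *C1qtnf12*, *Tmem14c* and *Mrpl20* (r = 0.97 for each, within groups 0.84 to 0.91). *Uros* was nearest to *Tmem120b* (r = 0.94, within groups 0.74), *Hagh* and *Mrps22*, and *Ppox* to *Wrap73* (r = 0.87, within groups 0.83), *2700097O09Rik* and *Wdr83*. *Alas1* was nearest to *Dok3* (r = 0.94, within groups 0.67), *Ly6c2* and *Slc16a7*, and *Hmox1* to *Ccr3* (r = 0.91, within groups 0.67), *Pomgnt2* and *Cpq*. Among the members, *Alas1* had a negative r with *Alad*, *Uros*, *Urod*, *Cpox*, *Ppox* and *Fech* (-0.80 to -0.38) and a positive one with *Hmox1* (0.79). *Alas2*, with a mean of 27.7 counts, was left out here.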

How the data were processed

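RNA of sorted LSK and CMP cells was made into cDNA with a low-input kit that does not mark strand. The authors aligned reads to mm10 with STAR, removed duplicates with Picard and counted reads per GENCODE vM11 gene with HTSeq, and deposited these raw counts for each of the 19 libraries. Of the reads that were counted on a gene, ambiguous or assigned to no gene, 51.9% to 53.8% were assigned to none and stayed out of totals. Reads aligned to more than 1 place are outside this share. The deposited table of normalized values was not used. Here counts were tested with edgeR 4.0.16 (R 4.3.3): TMM scaling, filterByExpr with a minimum of 10 counts, quasi-likelihood fits and Benjamini-Hochberg adjustment over all genes tested, at 0.05. Comparisons between cell types used all 19 libraries in 6 groups; those within a cell type used its own libraries. Errors are standard errors unless SD is named. CPM are TMM-scaled over 19 libraries. Symbols and exons came from GENCODE vM21 of the same build. Alternatives were DESeq2 1.42.0, other scalings and filters, a replicate block, log2 totals as covariate, leaving out each library, and a correction for positions read more than once. The edgeR steps were tested on simulated counts. Beside the members, genes named were, per list and comparison, up to the 4 largest called changes with a mean of at least 50 counts, defining markers, and the 3 genes most like each member; *Apex2*, its neighbours and *Gpr15* were chosen after their values were seen. The members and lists were chosen with earlier results of these data known. Some genes that this rule names are not reported here.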

Additional observations from a re-analysis of the deposited data

Results flagged for a closer look

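*Fech* was at 143.5 CPM in LSK *Renilla* replicate C, while the other 3 libraries of that group lay between 110 and 114 CPM. On the scale of log2 CPM, its distance from the nearest of them was 0.875 of the range of the group, above the critical value of 0.829 for 4 libraries. This library had the lowest total of the series, 3647318 counts. It was 1 of 18 sets of 4 values checked, and chance flags about 1 in 20.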

How the results depend on the processing

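Of 51 log2 fold changes of members, edgeR with DESeq2's size factors kept the direction and side of the threshold for all 51, DESeq2 for 47 and the fit without a filter for 45. In cells with sh10, 4 members instead of 7 passed between cell types under upper quartile normalization, which moved the median of all genes to -0.11 and where 15.9% of all genes passed. With both shRNAs in CMPs, 1 passed under upper quartile normalization (2.54% of all genes), 2 in DESeq2 and 2 with the shRNAs as separate groups, instead of 0. With sh20 against *Renilla* shRNA in CMPs, 4 passed without a filter (4.04% of all genes), and 0 with the replicate block (0%), with log2 totals as a covariate (0%) or with corrected counts (3.56%), instead of 2. Between sh20 and sh10 in CMPs, 2 passed without a filter (4.95% of all genes) and 1 in DESeq2, instead of 0. The causes were not tested.

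With log2 total counts as a covariate, directions turned for *Alas2* between cell types with sh20 (0.027). With both shRNAs in CMPs they turned for *Alad* (0.034), *Uros* (-0.96), *Ppox* (0.065), *Fech* (-0.12) and *Hmox1* (-1.44), with sh10 for *Alad* (0.052) and *Hmox1* (-0.22), with sh20 for *Alad* (0.061), and between the shRNAs for *Alad* (0.009). In CMPs totals and shRNA do not overlap between groups and cannot be told apart. *Hmox1* with sh10 turned under upper quartile normalization (-0.015).

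Leaving out 1 library, 3 to 8 members passed between cell types with sh10 (8.59% to 17.3% of all genes), 0 to 4 with sh20 against *Renilla* shRNA in CMPs (3.13% to 21.9%) and 0 to 2 between sh20 and sh10 there (0.615% to 23.9%). Directions turned for *Alas2* between cell types with sh10 (-0.46 to 1.48) and sh20 (-5.57 to 4.62), *Ppox* with sh20 (-0.043 to 0.22), *Uros* in CMPs with both shRNAs (-0.02 to 0.36) and with sh10 (-0.24 to 0.022), and *Hmox1* there with sh10 (-0.11 to 0.16) and between the shRNAs (-0.038 to 2.11).

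Libraries of the same letter and shRNA in both cell types correlated in their deviations from the group means by -0.0007 to 0.210 over 9 pairs, and 14 of 18 libraries correlated best with their own letter, as a hint from the data. Whether the letters pair libraries is not given in the labels, and not every pair correlated by more than 0.1, so they were not used as a pairing. The replicate block changed the 2 calls with sh20 in CMPs and no other call of a member. It groups libraries by letter whatever the shRNA, so it does not test a pairing by letter and shRNA across cell types. Within a cell type, libraries of the same letter had a median correlation of 0.0054 over 16 pairs.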

Other observations

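*Apex2*, a DNA repair nuclease on the other strand of the X chromosome across *Alas2* (chrX:150519519-150589868), had 5 counts in CMP sh20 replicate B and between 57 and 245 in each of the other 18 libraries. *Alas2* had 1 count there, although the summed globin level was 36.3 CPM. The next genes with reads were not low in that library. *Tmem29* (chrX:150397773-150459154) had 160 counts, against 69 to 159 in the other libraries, and *Pfkfb1* (chrX:150588229-150643878) had 45, against 11 to 56. *Gpr15*, which overlaps *Cpox* on the other strand, had 67 counts in CMP sh20 replicate C and at most 13 elsewhere, while *Cpox* had 762 to 1826 counts in CMPs.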
